A study of Vitis rotundifolia with 12 samples.

Results

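In muscadine pedicels, 98 of 26394 gene models had higher read counts in the strongly than in the weakly attached genotype at pea-size and at maturity. Their ratio between those stages stayed within set limits in each genotype. The 98 were chosen from the counts themselves. A count was divided by its library's total over all gene models and multiplied by 1000000 to give CPM, and a ratio of group means was taken after adding 0.5 CPM to each mean. A gene model was kept where each of the 6 libraries of the strongly attached genotype lay above all 6 of the weakly attached genotype, where the ratio between genotypes was at least 4 at each stage, and where the ratio of maturity to pea-size lay strictly between 0.5 and 2 in each genotype. Because all 12 libraries entered that choice, the differences between genotypes given here describe the 98 gene models and carry no test. The mirrored rule, with the genotypes exchanged, kept 27 gene models. The 98 were 0.371% of the gene models in the files and 0.437% of the 22431 with at least 1 count.

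The study sequenced RNA of pedicels, the stalks that hold the berries, from Ga. 12-3-22 (W, weakly attached fruit) and Ga. 6-1-269 (S, strongly attached fruit), each collected when the berries were pea-sized and when they were mature. Each of the 4 groups had 3 biological replicates. All vines grew at one research site in Florida, no treatment other than freezing was given, and reads of both genotypes were mapped to another cultivar, 'Noble'. Both genotypes are self-fertile, W with red and S with bronze fruit, and each attachment class is represented by a single genotype. Attachment strength, fruit colour and all other differences between these genotypes therefore cannot be told apart. The gene models carry no names: 0 of their identifiers occur in the reference table of muscadine genes, so neither gene functions nor tissue markers could be assigned, and the label of the tissue was not checked against markers.

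Fruit separate from the vine at an abscission zone, a band of small cells at the junction of fruit and pedicel. Auxin flowing through the pedicel keeps these cells insensitive to ethylene. When that flow falls, ethylene and other hormones induce enzymes that loosen the cell wall and the middle lamella between neighbouring cells. A whole pedicel also holds epidermis, cortex, vascular tissue and fibres, so a gene transcribed in any of these contributes to the counts. In such bulk samples, fewer cells of a type and less RNA per cell cannot be told apart.

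Gene counts per library ranged from 4705119 to 21971736, and the S libraries together held 88417960 counts against 53776718 in the W libraries. S maturity replicate 1 stood apart from the other libraries. Its Spearman correlation with the other mature S libraries was 0.871 to 0.881, against 0.909 to 0.970 for all other replicate pairs, 30.4% of its reads fell on no gene model, and a single gene model took 12.3% of its gene counts. S maturity replicate 2 followed with 21.8% and 6.94% for the same measures. The main values at maturity in S are given below with and without replicate 1.

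The 98 gene models were of ordinary abundance in S and scarce in W. Their mean over the 6 S libraries ran from 2.25 to 341.6 CPM with a median of 9.67 CPM, close to the median of 10.99 CPM over all gene models with a count. Their mean over the 6 W libraries reached 57.0 CPM at most and had a median of 0.450 CPM, a level below which only 20.98% of all gene models with a count lay in W. By group, the median level was 0.501 CPM in W at pea-size, 0.487 CPM in W at maturity, 9.62 CPM in S at pea-size and 9.99 CPM in S at maturity. In S, 6 gene models had a mean of 100 CPM or more, 42 had a mean of 10 to 100 CPM and 50 lay under 10 CPM. The rule asks for a W level well below that in S and cannot keep gene models with almost no counts in S. Comparisons of the 98 with all gene models therefore partly describe the choice.

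**Figure D1:**
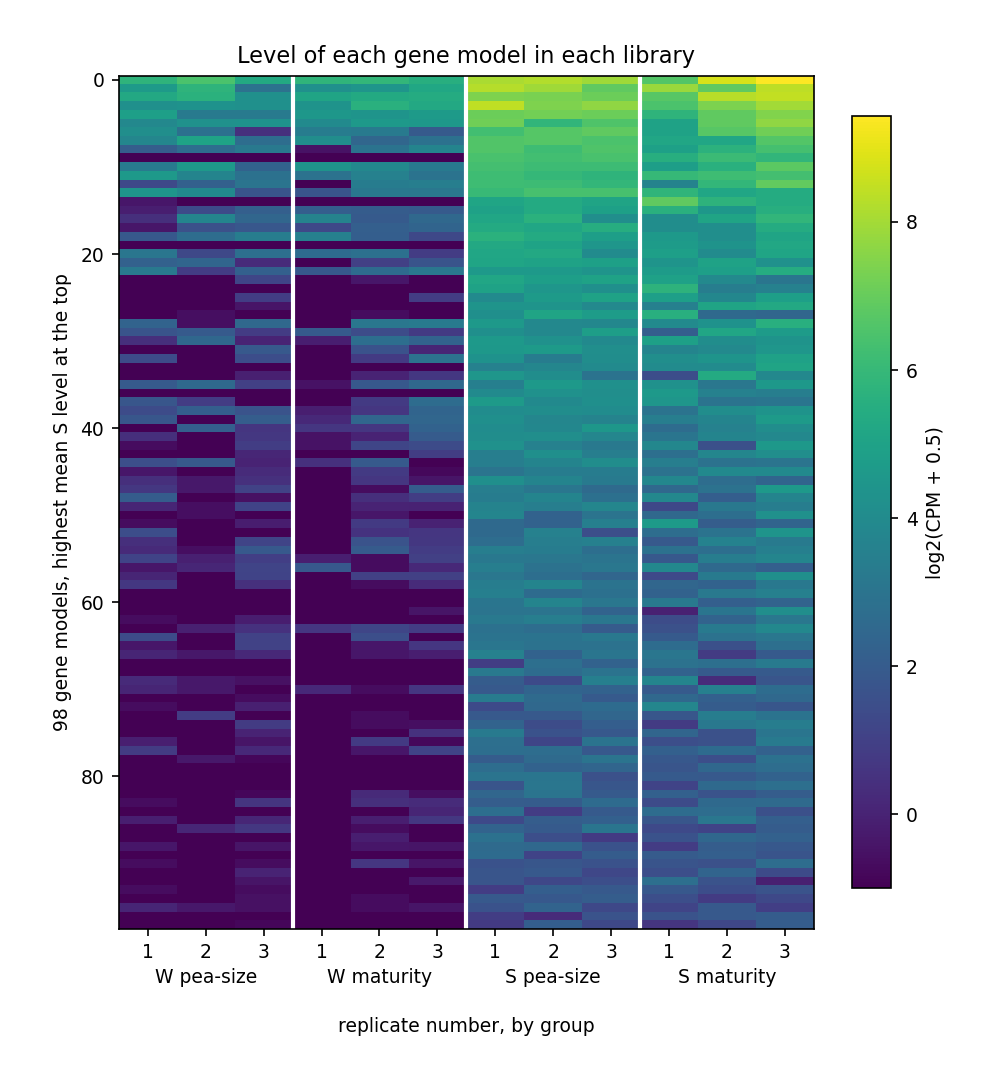
Level of each of the 98 gene models (rows, ordered by mean S level with the highest at the top) in each of the 12 libraries (columns, by group and replicate number), as log2(CPM + 0.5). The 6 W columns are dark for most rows and the 6 S columns are lighter in each row. S maturity replicate 1 is darker than its neighbours in many of the upper rows.

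Added together, the 98 gene models took a small part of each library, larger in S than in W. Their summed level was 342.1, 406.2 and 241.3 CPM in the W pea-size libraries (mean 329.9 ± 83.2, SD, n = 3) and 274.0, 371.6 and 379.4 CPM in the W mature libraries (341.7 ± 58.8, SD, n = 3). It was 3104, 2766 and 2516 CPM in the S pea-size libraries (2795 ± 295, SD, n = 3) and 1904, 2622 and 3940 CPM in the S mature libraries (2822 ± 1033, SD, n = 3, or 3281 ± 932, n = 2, without replicate 1). The S sum was 8.36 times the W sum, the genotypes did not overlap, and within each genotype the stages overlapped. The rule required each member to separate the genotypes and limited its change between stages, so these sums describe the choice. The 5 most abundant members supplied 39.4% of the S sum.

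The gene model with the highest S level was evm.model.chr18.1438 on chromosome 18. It stood at 53.8, 87.9 and 39.6 CPM in W at pea-size, at 55.7, 59.2 and 45.9 CPM in W at maturity, at 274.9, 301.4 and 244.9 CPM in S at pea-size, and at 98.9, 440.7 and 688.9 CPM in S at maturity. The lowest S value, in S maturity replicate 1, was above the highest W value, in W pea-size replicate 2, and the mature S libraries were spread over a wider range than any other group. The ratio between genotypes was 4.50 at pea-size and 7.58 at maturity, or 10.4 at maturity without S maturity replicate 1. This was a gene model with a clear level in W, unlike most of the 98.

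The gene model evm.model.chr16.1353 on chromosome 16 had the highest S level among those lower at maturity than at pea-size in S. Its W values were 18.2, 19.2 and 18.4 CPM at pea-size and 19.8, 49.2 and 38.6 CPM at maturity, and its S values were 340.9, 168.3 and 208.1 CPM at pea-size and 89.0, 166.2 and 251.9 CPM at maturity. The ratio between genotypes was 12.5 at pea-size and 4.66 at maturity, or 5.76 at maturity without S maturity replicate 1. The smaller ratio at maturity went with means that were higher in W and lower in S than at pea-size, with S maturity replicate 1 the lowest S library.

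The largest ratios belonged to gene models with almost no counts in W. No read was counted on evm.model.chr7.1374 on chromosome 7 in any of the 6 W libraries, while its S values were 85.8, 75.7 and 85.4 CPM at pea-size and 46.6, 69.2 and 57.9 CPM at maturity. A count of 0 allows up to 3 counts over a group, which is 0.102 CPM over the W pea-size libraries and 0.123 CPM over the W mature libraries, and against these limits its S mean was at least 806-fold higher at pea-size and at least 471-fold higher at maturity (517-fold without S maturity replicate 1). Its S libraries lay close together, with standard deviations of 5.71 CPM at pea-size and 11.3 CPM at maturity (n = 3 each). On chromosome 8, evm.model.chr8.717 had 2 counts in W pea-size replicate 1 and 0 in the other 5 W libraries, and stood at 34.3, 41.0 and 33.7 CPM in S at pea-size and at 117.1, 53.7 and 42.6 CPM in S at maturity. Here S maturity replicate 1 was the highest S library, the opposite of its place for evm.model.chr18.1438. With 0 counts in the mature W libraries, the mature S mean was at least 579-fold higher, or 392-fold without that library.

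**Figure D2:**
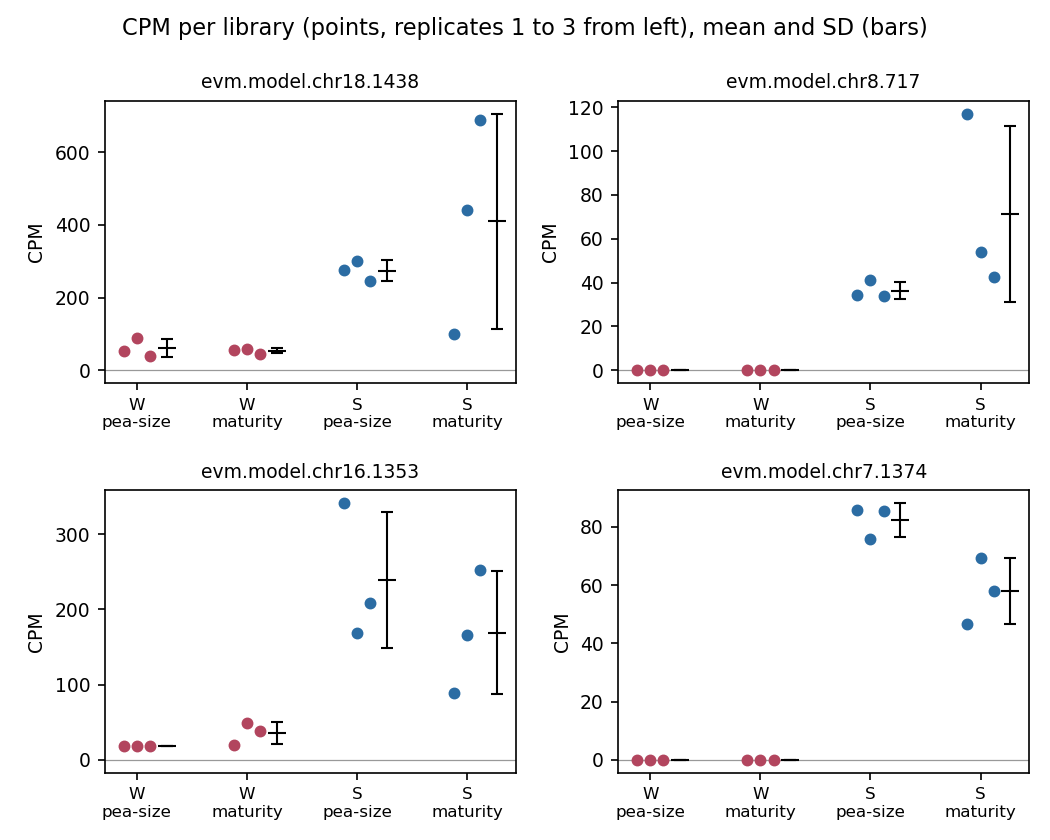
CPM of the 4 gene models named in the text in each of the 12 libraries, with 1 panel per gene model, points for libraries and bars for the group mean ± SD (n = 3). Each panel shows all S points above all W points, and the mature S points are the most widely spread in 3 of the 4 panels.

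Of the 98 gene models, 14 had 0 counts in all 6 W libraries, 9 had 1 to 3 W counts in total and 75 had more than 3. Only 24 had a count in each W library. All 98 had counts in each S library, the lowest being 5, and 96 had at least 10 in each. Thus counts were low in W rather than in S for most of the 98, and the precision of the ratios was not computed. The limits given for a count of 0 cover counting error only and leave out the spread between replicates. The libraries were amplified by PCR, and duplicates were removed, but no molecular identifiers are described.

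The 14 gene models at 0 in W had S means of 2.40 to 70.1 CPM with a median of 6.72 CPM. Against the limit of 3 counts, their S means were at least 15.6- to 806-fold higher at pea-size (median of these bounds 73.8) and at least 26.1- to 471-fold higher at maturity (median 54.0). Between members, the bounds at a stage differ only as their S levels differ, because the W limit is the same for all. The next most abundant member at 0 in W after evm.model.chr7.1374 was the one 20th in S level, on chromosome 18, with S values of 39.0, 32.2 and 21.7 CPM at pea-size and 25.8, 20 and 37.96 CPM at maturity. The authors counted uniquely mapped reads. Reads of W that failed to map to a single place in 'Noble' and transcripts that W lacked would give the same count of 0, and the files cannot tell them apart. The same holds for reads shared between near-identical gene models, which such counting leaves out.

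At the other end, 9 gene models had a W mean of at least 10 CPM. They were among the 12 most abundant in S, and the smaller of their ratios at the 2 stages was between 4.20 and 7.61. The second most abundant in S, on chromosome 4, stood at 24.9, 54.5 and 7.21 CPM in W at pea-size, at 18.3, 21.1 and 36.8 CPM in W at maturity, at 309.0, 243.2 and 116.9 CPM in S at pea-size, and at 233.9, 116.1 and 333.6 CPM in S at maturity. Its ratios were 7.61 and 8.82. The third, on chromosome 13, had W values of 18.3 to 50.5 CPM, S values of 136 to 171 CPM at pea-size and S values of 104 to 350 CPM at maturity, with ratios of 4.31 and 6.55. For both of them the lowest S library was more than 2 times the highest W library.

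**Figure D3:**
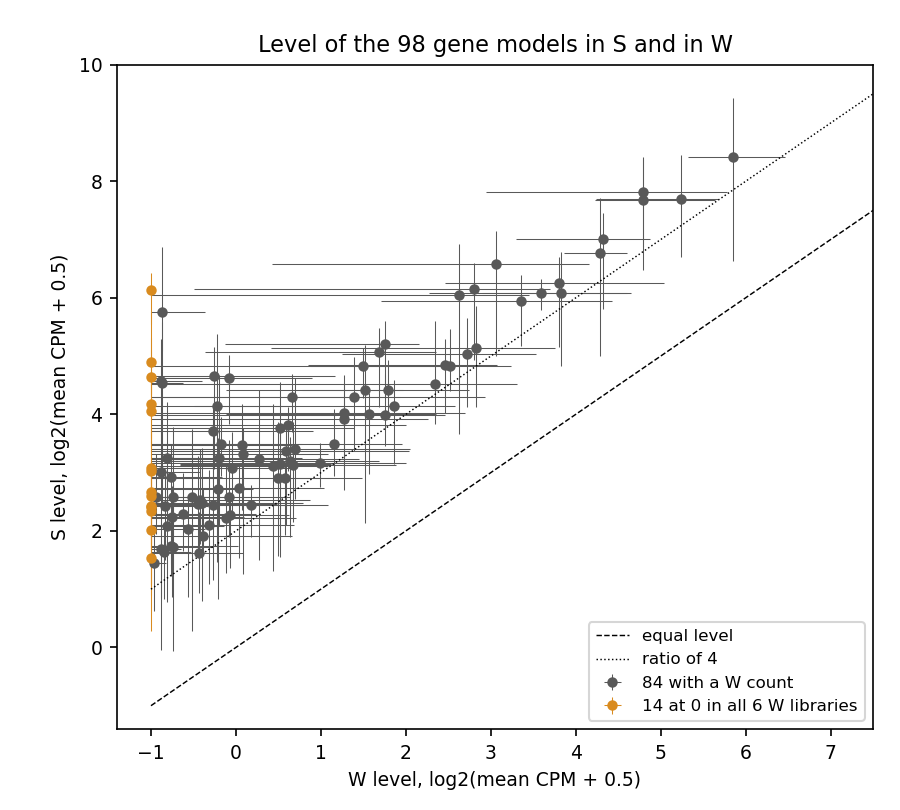
Mean level over the 6 W libraries (horizontal) against that over the 6 S libraries (vertical) for each of the 98 gene models, as log2(mean CPM + 0.5), with bars from the lowest to the highest library. The points lie above the dotted line of a ratio of 4, the 14 gene models at 0 in W stand at the left edge, and the 9 with a W mean of at least 10 CPM are at the upper right.

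The ratio between genotypes at pea-size was 4.12 to 165.6 with a median of 7.93, and at maturity it was 4.05 to 143.3 with a median of 7.35. At pea-size 49 members had a ratio under 8, 34 had a ratio of 8 to 16 and 15 had a higher ratio. The corresponding numbers at maturity were 56, 28 and 14. Most of the 98 therefore sat within a factor of 4 of the lower limit at each stage.

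The added 0.5 CPM held these ratios down where W was near 0. For the 62 members with more than 3 W counts at each stage, the plain fold without it had a median of 10.1 at pea-size (4.36 to 101.5) and 8.40 at maturity (4.31 to 55.3). The ratio was larger at pea-size for 54 members and at maturity for 44, and the 2 ratios differed by less than 2 times for 89. Across the 98 gene models they had a Spearman correlation of 0.636, given as a description because both ratios come from libraries of the same genotypes and both were limited by the rule.

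**Figure D4:**
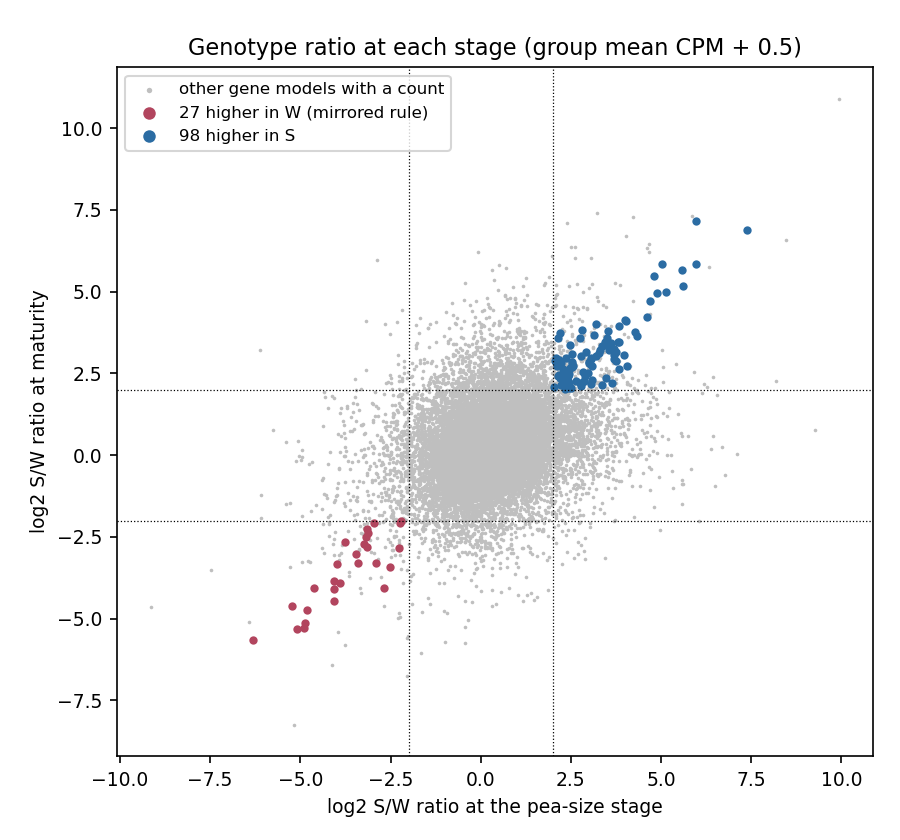
Ratio of S to W at pea-size (horizontal) against that at maturity (vertical), each as the log2 ratio of group means with 0.5 CPM added. The 98 gene models are blue, the 27 of the mirrored rule red and all others with a count grey, and the dotted lines mark a ratio of 4 in either direction. The blue points are dense just beyond the lines and thin out toward the upper right, where W was at or near 0.

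Of the 98, 12 had a ratio of at least 16 at both stages. Their S means ran from 7.92 to 70.1 CPM, their W means were at most 0.444 CPM, and 6 of them were at 0 in all W libraries. With 0.5 CPM added to each mean, a member at 0 in W can reach such a ratio only above a certain S level, so the lower end of this S range was set by the formula. The most abundant members, with a clear level in W, were not among the 12.

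Several members lay close to the limits of the rule. The lowest of the smaller ratios was 4.05, and the next gene model outside had 3.99. A smaller ratio under 5 was found for 32 of the 98, and 57 gene models that met the other conditions lay between 3 and 4. For 57 members the lowest S library was at least 2 times the highest W library, for 5 it was under 1.1 times, and the closest pair differed by a factor of 1.00018, with 0.9988 for the nearest gene model outside. The largest change between stages of a member was 1.97 times, and 2.05 times for the nearest one outside. Without the limit on the change between stages the other conditions kept 178 gene models, so 80 more were higher in S at both stages but changed by 2 times or more in a genotype: in S, 32 were above and 32 below that band, and in W 6 were above and 27 below, some of them outside it in both genotypes.

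Within the band allowed by the rule, the 98 gene models had no common direction between stages. The ratio of maturity to pea-size in S was 0.508 to 1.95 with a median of 0.963, with 44 gene models above 1 and 54 below. Without S maturity replicate 1 its median was 0.986, 48 were above 1, and 15 of the 98 left the band, 6 upward and 9 downward. In W it was 0.512 to 1.97 with a median of 1.00, with 41 above, 43 below and the 14 without counts at 1. The added 0.5 CPM holds this ratio toward 1 where W counts are few, and 61 of the 98 had a W mean under 1 CPM. The member 87th in S level had 21 W counts at pea-size and 1 at maturity, yet a ratio of 0.512. For such members, a steady level in W was therefore not shown. Both genotypes were above 1 for 25 gene models and both below for 29, S was above and W below for 14, and the reverse held for 16.

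Few members separated the stages by library. In S, all mature libraries were above all pea-size libraries for 3 gene models and below for 8, which is 11.2% of the 98 against 28.7% of all gene models with a count. In W the counts were 2 and 1, or 3.06% against 12.5%. The rule fixed this contrast to small changes, so the lower shares are a description of the choice. Among the 98, the highest S ratio of maturity to pea-size was that of evm.model.chr8.717, at 1.95. This place rested on S maturity replicate 1, without which the ratio was 1.32 and 27th of the 98, and the ratio of evm.model.chr18.1438 was 2.06 instead of 1.495.

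The spread between replicates was widest in W, where counts were low. The median coefficient of variation of the members with a count in the group was 97.8% in W at pea-size (81 members) and 97.1% in W at maturity (74 members). For all gene models with a count in those groups it was 50.5% and 42.5%. In S the median over the 98 was 27.6% at pea-size and 49.3% at maturity, against 26.5% and 52.8% for all. It was 29.1% at maturity without S maturity replicate 1 (2 libraries). The members were thus about as variable as other gene models in S. For 37 of the 98, more than 50% of the summed W level came from a single library, 15 of these having more than 20 W counts. The number of members at 0 ran from 24 in W pea-size replicate 3, the deepest W library, to 67 in W maturity replicate 1, the shallowest.

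S maturity replicate 1 was the lowest of the 6 S libraries for 40 of the 98 gene models, followed by S maturity replicate 2 for 25, while S maturity replicate 3 was the highest for 32. Replicate 1 lay below both other mature S libraries for 53 members, at under 1/2 of each for 26, and above both for 24, at over 2 times each for 13. So it did not move the members in a single direction. The rule kept only gene models that lay above all W libraries in replicate 1 too, so this split does not describe the library at large. The 27 gene models of the mirrored rule summed to 290.6 CPM in replicate 1, against 112.1 to 202.6 CPM in the other S libraries and 1430 to 2130 CPM in the W libraries. In replicate 1 the summed level of the 98 was thus the lowest of the S libraries and that of the mirrored set the highest. Its share of reads on no gene model is given above, and the part of RNA or library quality in these values was not tested.

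**Figure D5:**
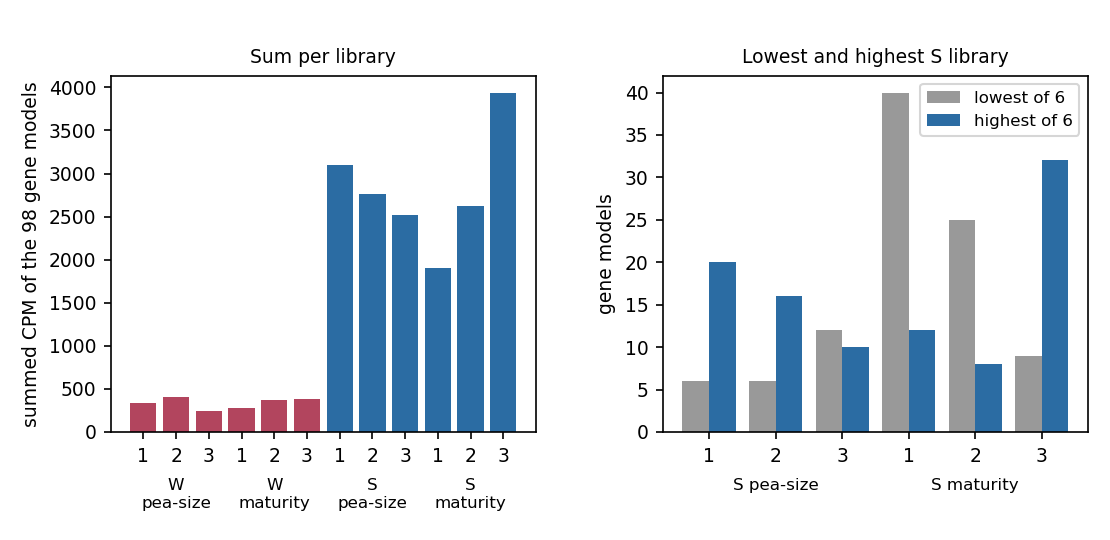
Left, summed CPM of the 98 gene models in each of the 12 libraries, by group and replicate number. Right, the number of the 98 for which each S library was the lowest or the highest of the 6. The W libraries lie between 241 and 406 CPM and the S libraries between 1904 and 3940 CPM, and S maturity replicate 1 is lowest in the sum and the lowest library for 40 gene models.

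The choice was repeated with each library left out in turn, and the left-out library was then compared with the other genotype. Between 87 and 143 gene models were picked. The left-out library lay on the side of its own genotype, beyond all libraries of the other, for 86.8% to 99.0% of the picks in 11 of the 12 repeats, against 13.4% to 34.6% of all gene models with a count. S maturity replicate 1 was the exception: 143 gene models were picked without it, and it lay above all W libraries for 92 of them, or 64.3%, against 13.97% of all gene models with a count. Of the 47 gene models that failed only because the genotypes overlapped, 37 no longer overlapped with just this library left out. Leaving out a W library can end the same overlap, so a gene model can count for both an S and a W library. The picks without replicate 1 held 80 of the 98, so 18 members were not picked without it. In the other repeats, 74 to 94 of the 98 were picked. The picks had to separate the genotypes in the remaining libraries, and the libraries of the other genotype were used in that choice. All gene models with a count had to meet no such condition, and they were not matched to the picks in level. The excess of the picks over them can come in part from the choice, and how much was not tested. The shares are thus a description and no independent test of the 98.

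A choice on the pea-size libraries alone was read in the mature libraries, which it did not use. With all 3 S above all 3 W libraries and a ratio of at least 4 at pea-size, 1415 gene models were picked. At maturity 248 of them (17.5%) also met both conditions, against 921 of 22431 gene models with a count (4.11%). The ratio at maturity was above 1 for 79.3% of the picks against 55.7% of all, and its median was 1.89 against 1.07. Thus the picks were higher in S at maturity more often than all gene models with a count. The difference was smaller than at pea-size, and most picks did not pass again. The picks and the 22431 were not matched in level. With 0.5 CPM added to each mean, gene models with almost no counts in S cannot reach a ratio of 4, yet they are among the 22431. Part of the excess over all gene models can come from this, and how much was not tested. Without S maturity replicate 1, 26.8% of the picks passed at maturity against 8.19% of all. The stages share no library, but vines were not named and may have been shared.

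In edgeR's quasi-likelihood test over all 12 libraries, all 98 gene models were among the 18439 tested, and a call needed a Benjamini-Hochberg adjusted p of at most 0.05 and a log2 fold change of at least 1. At pea-size 50 of the 98 were called higher in S, where 2.67% of all gene models tested were. At maturity 53 were called, where 3.48% of all were. The 2 contrasts compare separate libraries, but both come from the same fit, with a spread estimated over all 12. Of the 98, 42 were called in both and 37 in neither. Since the rule used the same contrasts, these counts are a description of how strict the test was for such members. The median log2 fold change of the 98 was 3.74 at pea-size and 3.78 at maturity, against 0.02 and 0.09 over all gene models tested.

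Those counts moved with single libraries. At pea-size, 26, 29 and 34 members were called without W pea-size replicates 1, 2 and 3, and 16, 20 and 22 without S pea-size replicates 1, 2 and 3. Of all 18906 to 19284 gene models tested, the same fits called 295, 295 and 404, and 178, 232 and 228. With all libraries 493 were called. At maturity, 33, 24 and 23 members were called without W maturity replicates 1, 2 and 3, and 34 and 27 without S maturity replicates 2 and 3. Of all 18932 to 19317 gene models tested, the same fits called 442, 237 and 173, and 288 and 261. With all libraries 642 were called. Leaving out S pea-size replicates 1, 2 and 3 gave 36, 35 and 38 members at maturity, with 457, 453 and 443 of all gene models. Without W pea-size replicates 1, 2 and 3 there were 57, 60 and 58 at maturity, with 630, 723 and 784 of all. At pea-size, 55, 40 and 46 members were called without W maturity replicates 1, 2 and 3, with 614, 407 and 418 of all. Without S maturity replicates 2 and 3 they were 41 and 46, with 451 and 528 of all. Leaving out a library of the stage compared lowered the number of members called, except for S maturity replicate 1. Without that library, 57 members were called at pea-size and 62 at maturity, with 933 and 1727 of all gene models. These moves were not particular to the members.

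For evm.model.chr18.1438 the fitted log2 fold change of S against W was 2.02 (SE 0.47) at pea-size and 2.80 (SE 0.49) at maturity, and for evm.model.chr16.1353 it was 3.53 (SE 0.40) and 2.15 (SE 0.37). At maturity without S maturity replicate 1 the fitted values were 3.29 (SE 0.31) and 2.45 (SE 0.34). No fitted value is given for evm.model.chr7.1374 and evm.model.chr8.717, because with W at or near 0 it depends on the prior count of the fit.

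The 98 gene models lay on all 20 chromosomes of 'Noble'. Chromosome 3 held 10, chromosomes 7 and 18 held 9 each and chromosome 10 held 8, while chromosomes 11 and 20 held 1 each. As a share of the gene models with a count, this was 1.02% on chromosome 3 and 0.104% on chromosome 11. Of the 14 at 0 in W, 3 were on chromosome 3 and 2 on each of chromosomes 5, 8, 15 and 18.

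The identifiers are numbered along each chromosome, and places in that numbering stand here for position, since no coordinates were used. No member was next to another, and 10 of the 98 had another within 10 places, of which 6 were at 0 in W. Of the gene models that were not members, 7.05% lay within 10 places of one, so the share among members was near this background. The closest pair was on chromosome 15, the 69th and the 81st in S level, 2 places apart and both at 0 in W. The first had S values of 8.71, 6.03 and 7.32 CPM at pea-size and 4.37, 3.41 and 3.37 CPM at maturity, and the second had 7.58, 7.77 and 2.49 CPM and then 3.32, 3.26 and 4.37 CPM. Both were low in S and lower in their means at maturity.

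On chromosome 18, the 20th and the 25th in S level were 6 places apart and both at 0 in W. The 25th had S values of 31.7, 21.7 and 17.6 CPM at pea-size and 53.3, 10.3 and 11.4 CPM at maturity. S maturity replicate 1 was its highest library, while the 20th, with values given above, was highest in S pea-size replicate 1. On chromosome 8, evm.model.chr8.717 was 5 places from the 37th in S level, which was at 0 in W and had S values of 15.2, 18.9 and 17.4 CPM at pea-size and 23.8, 11.6 and 10.4 CPM at maturity. In this pair S maturity replicate 1 was the highest library for both members. Whether such neighbours share reads or sequence was not tested.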

How the data were processed

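Pedicel RNA was sequenced from 12 libraries in 4 groups of 3, grouped by the labels for genotype and developmental stage. Another label reads mature for the tissue type of all 12 and was not used. The authors trimmed the reads, mapped them with STAR to 'Noble', and took read numbers on each gene model with HTSeq after duplicate removal. The strand setting is not given in the sources used here. The deposited values are whole read counts. The 5 summary entries of uncounted reads, 15.2% to 34.7% of a library's reads, were left out of totals and tests. CPM, ratios and the choice of the gene models were computed in Python 3.11.15 with pandas 2.3.3. Genotypes were compared at each stage in a single fit with edgeR 4.0.16 (R 4.3.3, TMM, filterByExpr, robust quasi-likelihood fit, 1 mean per group). The code of the fit was run on simulated counts. These had the same spread for every gene model and no library that stood apart, so they do not cover those features of the data. DESeq2 1.42.0, other scalings, thresholds and filters, each stage alone, a replicate block and leaving out each library were alternatives. No pair of replicates agreed within sampling noise.

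The gene models, the rule and the lists were chosen with earlier results of these data known. Identifiers were limited to 4 members with a mean of at least 50 S counts: among those above a stage ratio of 1 in S, and among those below, the one with the highest S level and the one with the largest S/W ratio. Others are given by rank and chromosome, and gene models singled out as neighbours were chosen after their values were seen. Sequences and gene functions are not analysed here.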

Additional observations from a re-analysis of the deposited data

How the results depend on the processing

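The number of gene models kept depended on the limits: 258 with a ratio of 2, 34 with a ratio of 8, 178 without a limit between stages, and 55 with a limit of 1.5 times. With other scalings, filters, pseudocounts, medians or overlap allowed it was 79 to 145, and 87 to 143 with a library left out. All settings kept more gene models higher in S than higher in W. DESeq2 called 85 of the 98 at pea-size and 88 at maturity (1222 and 1630 of all gene models). With the 6 libraries of a stage alone, edgeR called 59 of the 97 members tested at pea-size and 21 of the 95 tested at maturity. Of all gene models it then called 1036 at pea-size and 160 at maturity. Leaving out a library gave 16 to 57 and 23 to 62 of the 98, and 178 to 933 and 173 to 1727 of all. Of gene models picked at pea-size, 13.5% passed at maturity with a ratio of 8, and 13.7% to 26.8% with a library left out. Picked at maturity, 26.9% passed at pea-size. The causes were not tested, beyond fewer libraries where some were left out. For evm.model.chr18.1438 the call at pea-size was lost in 5 of 18 settings, all with a library left out (log2 fold change 1.78 to 2.15), and that at maturity with the 6 libraries of the stage alone (log2 fold change 2.87, SE 0.57).

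Replicate numbers did not pair the libraries: deviations of same-numbered libraries correlated at -0.0969 to 0.0232, and 1 of 12 correlated best with its own number. With a replicate block, 29 of the 98 were called at pea-size and 35 at maturity, and 370 and 405 of all gene models.

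Depth limited the W side. The shallowest W library held 4705119 gene counts, in which 3 counts are 0.638 CPM, above the median W level of the 98.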

Other observations

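Over all gene models, 52 were at 0 in all 6 W libraries with a count in each S library, and 4 were at 0 in all 6 S libraries with a count in each W library. The S libraries together were the deeper side, at 88417960 counts against 53776718. Of the 27 gene models kept by the mirrored rule, 1 was at 0 in all S libraries.

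Of the 27, 8 (29.6%) lay within 10 places of a member of the 98 in the numbering along a chromosome, against 7.05% of all gene models outside the 98. This was seen in the data and has no test. On chromosome 12, the 34th member in S level (17.6 CPM in S, 0 in W) was next to a gene model with 0.926 CPM in S and 7.79 CPM in W. The S values of that member were 11.5, 13.3 and 15.6 CPM at pea-size and 15.8, 15.8 and 33.8 CPM at maturity. On chromosome 13, the 18th member (33.0 CPM in S, 2.72 CPM in W) was 2 places from a gene model at 0 in all S libraries with 0.139 to 9.78 CPM in W. On chromosome 8, evm.model.chr8.717 (53.7 CPM in S, 0.0464 CPM in W) was 3 places from a gene model with 0.102 CPM in S and 11.9 CPM in W.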
